A study of Mus musculus with 9 samples.

Results

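The 10 genes described here encode proteins that carry or stop the signal of Fc receptors inside the cell. They were chosen by gene symbol, *Inpp5d*, *Ptpn6*, *Ptpn11*, *Dok1* and *Dok3* for the inhibitory arm and *Syk*, *Lyn*, *Btk*, *Plcg2* and *Blnk* for the activating arm. All 10 were found among the 27179 genes counted, and all 10 were among the 16329 genes that passed the filter on low counts and were tested. Poly(A) RNA from whole mandibles with their teeth was sequenced with 1 library per mouse, from 5 WT mice and from 4 that carry the label *FcγRIIB*-/-, all C57BL/6 males aged 6 months. The labels name no cell type for the deletion, and a whole mandible also holds marrow and blood. Totals were between 24158960 and 26787359 counts per mouse in WT and between 21453880 and 28991631 in the other group.

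Fc receptors bind the constant part of antibodies. Activating receptors signal through ITAM motifs, which SRC family kinases such as LYN phosphorylate so that SYK can dock and pass the signal through BLNK and BTK to the phospholipase PLCγ2 and to calcium release. FcγRIIB is the inhibitory receptor of the family, and its ITIM motif, once phosphorylated, recruits the phosphatase SHIP1, the product of *Inpp5d*, which removes the membrane lipid that BTK and PLCγ2 need. In bone, ITAM signaling through SYK also supports the formation of osteoclasts, the cells that resorb bone.

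*Fcgr2b* (gene identifier 14130), the gene named in the knockout label, measured 20.9, 38.3, 17, 23.1 and 20.7 CPM, that is counts scaled to the normalized library size, in WT replicates 1 to 5. It measured 26.5, 26, 26.6 and 32.1 CPM in libraries 1 to 4 labelled *FcγRIIB*-/-. The groups overlapped, and the log2 fold change was 0.21 (standard error 0.20, edgeR adjusted p = 0.442). Without WT replicate 2 it was 0.46 and passed as higher (edgeR adjusted p = 0.0131). Reads on its individual exons were not analysed here, and reads shared with the paralogs *Fcgr3* and *Fcgr4* would make its count uncertain. The count was not lower under the knockout label, and every direction given here is between libraries by their labels.

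Of the 10 mediators, 6 were lower in the libraries labelled *FcγRIIB*-/- and 0 were higher (edgeR's quasi-likelihood test, Benjamini-Hochberg adjusted p under 0.05). Among all genes tested, 19.3% were lower and 14.0% were higher. At an unadjusted p under 0.05 (edgeR) 7 of the 10 were lower and 1 was higher, beside 24.1% and 20.2% of all genes tested. DESeq2 called 6 lower and 1 higher, beside 19.6% and 17.3% of all genes. The 6 were *Inpp5d*, *Ptpn6* and *Dok3* of the inhibitory arm and *Syk*, *Btk* and *Plcg2* of the activating arm, so each arm had 3 of 5 lower. The median log2 fold change of the 10 was -0.76, beside 0.01 over all genes tested. For 5 of the 10, *Inpp5d*, *Dok3*, *Syk*, *Btk* and *Plcg2*, every library labelled *FcγRIIB*-/- lay below every WT library, which held for 17.5% of all genes tested. The opposite separation held for 0 of the 10 and for 12.1% of all genes. WT replicate 2 had the highest CPM of all 9 mice for 7 of the 10 mediators, and replicate 2 of the libraries labelled *FcγRIIB*-/- had the lowest for 6. Without WT replicate 2, 5 of the 10 were lower and 1, *Blnk*, was higher.

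**Figure D1:**
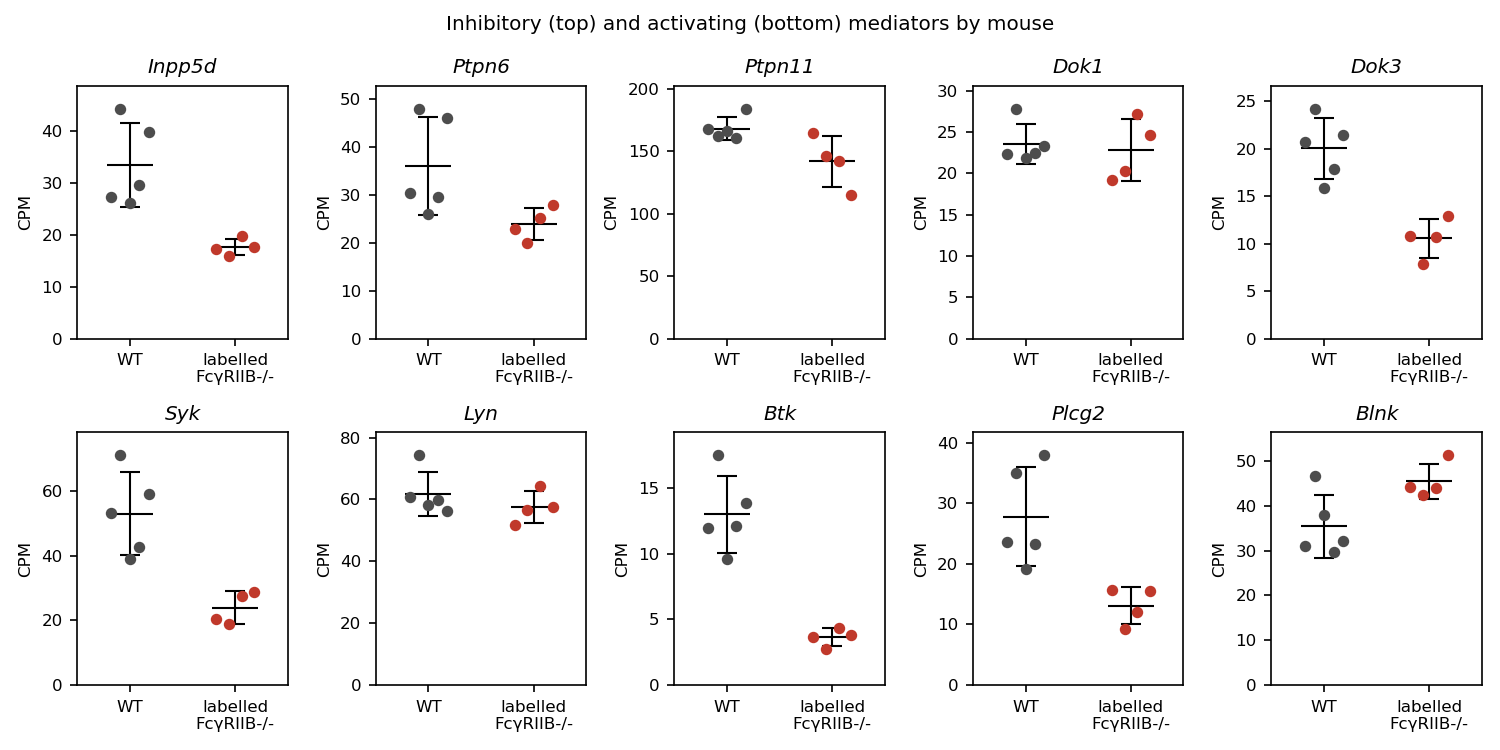
CPM of the 10 mediators in each mouse, with 1 panel per gene, each y axis starting at 0 with its own range, 1 point per library (5 WT, 4 labelled *FcγRIIB*-/-) and the mean with its SD. The points of the groups are apart for *Inpp5d*, *Dok3*, *Syk*, *Btk* and *Plcg2*, and they overlap for the other 5 genes.

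*Inpp5d* (gene identifier 16331; mm10 chromosome 1, 87620312 to 87720510, plus strand) encodes SHIP1, the lipid phosphatase through which FcγRIIB acts. It measured 27.3, 44.2, 26.1, 29.5 and 39.7 CPM in WT replicates 1 to 5, and 17.3, 15.9, 19.7 and 17.6 CPM in libraries 1 to 4 labelled *FcγRIIB*-/-. Its lowest WT library was above its highest library of the other group, and WT replicates 2 and 5 stood above the other WT mice. The means were 33.4 ± 8.11 (SD, n = 5) and 17.6 ± 1.59 (SD, n = 4), which is 1.89-fold lower, a log2 fold change of -0.92 (standard error 0.16, edgeR adjusted p = 0.0025). Leaving out any 1 mouse gave values between -0.98 and -0.78, and the highest edgeR adjusted p was 0.00896.

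*Ptpn6* (identifier 15170; chromosome 6, 124720707 to 124738709, minus strand) and *Ptpn11* (identifier 19247; chromosome 5, 121130533 to 121191397, minus strand) encode the related tyrosine phosphatases SHP-1 and SHP-2. SHP-1 is abundant in blood cells and dampens receptor signals, while SHP-2 is made in most cell types and promotes growth factor signaling. *Ptpn6* measured 30.3, 47.9, 26, 29.5 and 46.1 CPM in WT and 22.8, 19.9, 25.1 and 27.8 CPM in the libraries labelled *FcγRIIB*-/-. The groups overlapped, because WT replicate 3 lay below replicate 4 of the other group, and WT replicates 2 and 5 were again the highest. Its mean fell from 36.0 ± 10.2 (SD, n = 5) to 23.9 ± 3.37 (SD, n = 4), a log2 fold change of -0.59 (standard error 0.19, edgeR adjusted p = 0.0368). This call was lost without WT replicate 2 or 5 (edgeR adjusted p = 0.0801 and 0.0826) and without replicate 1, 2 or 3 of the libraries labelled *FcγRIIB*-/- (edgeR adjusted p = 0.0835, 0.0966 and 0.0665). The exons of *Ptpn6* overlap the predicted gene *Gm20531* on the opposite strand, and the strand setting of the counting is not given in the sources used here.

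*Ptpn11* had the highest CPM of the 10, at 168, 162, 166, 161 and 184 CPM in WT and 165, 146, 142 and 115 CPM in the libraries labelled *FcγRIIB*-/-. Replicate 1 of the latter lay within the WT range and the other 3 lay below it. The log2 fold change was -0.24 (standard error 0.10) and did not pass (edgeR adjusted p = 0.0771). Without replicate 1 of the libraries labelled *FcγRIIB*-/- it was -0.32 and passed as lower (edgeR adjusted p = 0.0312).

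RefSeq promoter windows of GRCm38.p6 (mm10), here the 250 bases before each annotated start, were matched for 8 of the 10 mediators, with 9 windows because *Syk* has 2 starts. *Dok1* and *Lyn* were not matched. The windows of *Inpp5d* and *Ptpn11* are printed because these phosphatases differ in how the groups separated and in base composition, and the capitals mark GAGGAA, the core bound by the blood cell factor PU.1.
Inpp5d, chr1:87620062-87620311, plus strand: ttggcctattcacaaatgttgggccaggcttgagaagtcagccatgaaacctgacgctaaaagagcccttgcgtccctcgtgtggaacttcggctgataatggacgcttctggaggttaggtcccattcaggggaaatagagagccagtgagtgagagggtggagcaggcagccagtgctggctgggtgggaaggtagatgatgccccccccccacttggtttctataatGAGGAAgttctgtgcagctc
Ptpn11, chr5:121191398-121191647, minus strand: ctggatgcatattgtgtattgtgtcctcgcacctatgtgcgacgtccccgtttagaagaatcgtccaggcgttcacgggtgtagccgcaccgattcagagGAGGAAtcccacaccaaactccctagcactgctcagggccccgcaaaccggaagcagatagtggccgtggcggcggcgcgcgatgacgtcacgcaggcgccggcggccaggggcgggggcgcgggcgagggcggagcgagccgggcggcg
The motif was searched as GAGGAA and as TTCCTC, its reverse complement. It stood 20 bases before the start of *Inpp5d*, 150 bases before that of *Ptpn11* and 9 bases before the second start of *Syk*. That was 3 of the 9 windows, or 33.3%, beside 23.3% of 32851 windows of the same length over all genes. A match is a description of the letters and not a bound site. CpG pairs numbered 31 in the *Ptpn11* window, 27 and 2 in those of *Syk* and 17 in that of *Plcg2*. *Ptpn6* had 7, *Blnk* 6, *Inpp5d* 5, and *Btk* and *Dok3* 3 each, beside a median of 6 over all windows. The sequences bear on no test of the counts.

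*Dok1* and *Dok3* encode adaptors that dampen signals of immune receptors, DOK1 through the RAS pathway and DOK3 together with SHIP1 in B cells. *Dok1* (identifier 13448; chromosome 6, 83030932 to 83033495, minus strand) measured 22.4, 27.8, 21.9, 22.5 and 23.3 CPM in WT and 19.2, 20.3, 27.2 and 24.6 CPM in the libraries labelled *FcγRIIB*-/-. Its groups overlapped, a log2 fold change of -0.05 (standard error 0.12, edgeR adjusted p = 0.768). *Dok3* (identifier 27261; chromosome 13, 55523231 to 55530345, minus strand) measured 20.7, 24.2, 15.9, 17.9 and 21.5 CPM in WT and 10.8, 7.81, 10.7 and 12.9 CPM in the other group. Its groups did not overlap. The *Dok3* means were 20.02 ± 3.23 (SD, n = 5) and 10.5 ± 2.08 (SD, n = 4), 1.9-fold lower, and the log2 fold change was -0.93 (standard error 0.16, edgeR adjusted p = 0.0022).

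*Syk* (identifier 20963; chromosome 13, 52582610 to 52648792, plus strand) encodes the kinase that binds phosphorylated ITAMs. It measured 53.2, 71.1, 39.1, 42.6 and 59.3 CPM in WT and 20.3, 18.9, 27.6 and 28.9 CPM in the libraries labelled *FcγRIIB*-/-. The lowest WT library, replicate 3, was above all 4 of the other group. The means were 53.1 ± 12.9 (SD, n = 5) and 24.0 ± 5.05 (SD, n = 4), 2.22-fold lower, a log2 fold change of -1.15 (standard error 0.19, edgeR adjusted p = 0.00198).

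*Lyn* (identifier 17096; chromosome 4, 3678068 to 3791612, plus strand) encodes the SRC family kinase that phosphorylates ITAMs and ITIMs alike and so serves both arms. It measured 60.8, 74.2, 58.1, 59.9 and 56.4 CPM in WT and 51.6, 56.5, 64.2 and 57.7 CPM in the libraries labelled *FcγRIIB*-/-. The groups overlapped, and WT replicate 2 stood above all other mice. The log2 fold change was -0.11 (standard error 0.09, edgeR adjusted p = 0.401). The exons of *Lyn* overlap *Gm26857* on the opposite strand.

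*Btk* (identifier 12229; chromosome X, 134542334 to 134583628, minus strand) encodes the TEC family kinase that phosphorylates PLCγ2. It had the lowest CPM in both groups and the most negative log2 fold change of the 10. It measured 12, 17.5, 9.6, 12.1 and 13.9 CPM in WT and 3.68, 2.73, 4.36 and 3.8 CPM in the libraries labelled *FcγRIIB*-/-, where its counts were 105, 59, 103 and 75. The groups were well apart, with the lowest WT library at 9.6 CPM and the highest of the other group at 4.36 CPM. The means of 13.0 ± 2.91 (SD, n = 5) and 3.64 ± 0.68 (SD, n = 4) differed 3.57-fold, a log2 fold change of -1.83 (standard error 0.19, edgeR adjusted p = 0.00023). Leaving out any 1 mouse gave values between -1.93 and -1.69, and the highest edgeR adjusted p was 0.00128.

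*Plcg2* (identifier 234779; chromosome 8, 117498275 to 117635142, plus strand) encodes the phospholipase at the end of the chain, which makes the messengers that release calcium. It measured 23.6, 35, 19.2, 23.2 and 37.9 CPM in WT and 15.7, 9.29, 12 and 15.5 CPM in the libraries labelled *FcγRIIB*-/-. All 4 of the latter were below WT, and WT replicates 2 and 5 were the highest. The mean fell from 27.8 ± 8.18 (SD, n = 5) to 13.1 ± 3.06 (SD, n = 4), 2.12-fold, a log2 fold change of -1.08 (standard error 0.23, edgeR adjusted p = 0.00544).

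*Blnk* (identifier 17060; chromosome 19, 40928927 to 40994221, minus strand) encodes the adaptor, known from B cells and osteoclast precursors, on which SYK, BTK and PLCγ2 meet. It was the only 1 of the 10 with a positive log2 fold change. It measured 30.9, 46.7, 37.9, 29.7 and 32.1 CPM in WT and 44.2, 42.4, 43.9 and 51.2 CPM in the libraries labelled *FcγRIIB*-/-. WT replicate 2 lay within the range of the other group and the remaining 4 WT mice lay below it. The log2 fold change was 0.36 (standard error 0.13) and missed the threshold (edgeR adjusted p = 0.0554). It passed as higher without WT replicate 2 (0.49, edgeR adjusted p = 0.00402), with DESeq2 size factors in edgeR (0.37, adjusted p = 0.0449) and with DESeq2 (0.37, adjusted p = 0.026). In simulated counts with 198 of 16205 genes changed, DESeq2 put 17.3% of its calls on unchanged genes, and edgeR 6.63%. Far more genes were called in these data, so those shares do not carry over to the *Blnk* call.

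**Figure D2:**
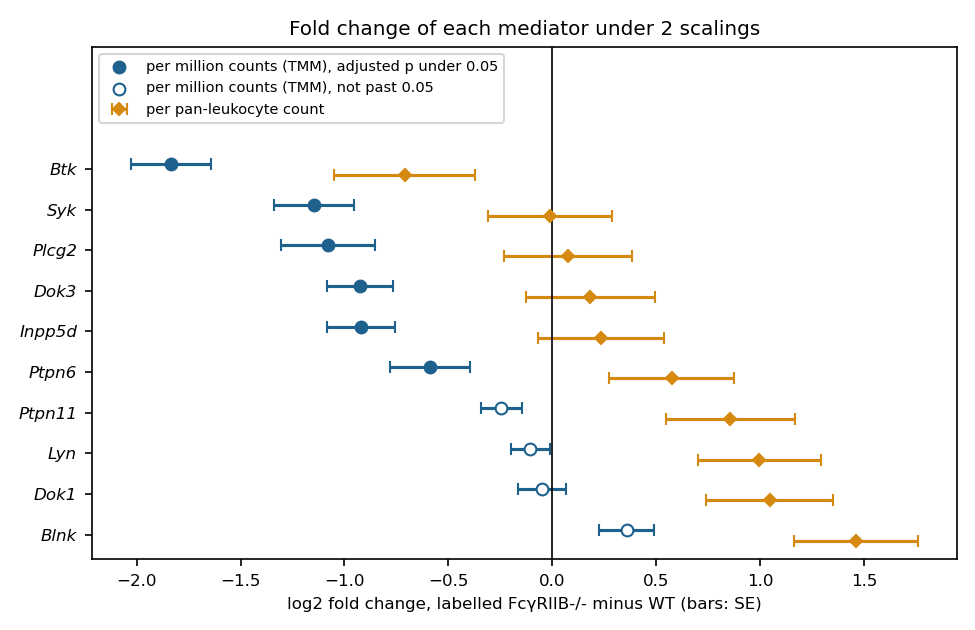
Log2 fold change (libraries labelled *FcγRIIB*-/- minus WT) of each mediator with its standard error as a bar, scaled by the whole library (TMM) and by the summed pan-leukocyte genes. By library, *Btk* is at -1.83 and *Blnk* at 0.36; by pan-leukocyte genes, *Btk* is at -0.71 and *Blnk* at 1.46.

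Per kilobase of exon, *Ptpn11* was the highest in WT at 22.5 ± 1.24 CPM per kb (SD, n = 5) and did not overlap the next gene. It was followed by *Lyn* at 15.2, *Ptpn6* at 12.8 and *Dok1* at 11.9 CPM per kb, whose ranges overlapped from one to the next. *Dok1* was in turn apart from *Dok3* at 8.15 CPM per kb. *Plcg2*, *Blnk*, *Syk*, *Inpp5d* and *Btk* then ran from 6.46 down to 4.14 CPM per kb, each overlapping its neighbour. In the libraries labelled *FcγRIIB*-/- *Ptpn11* at 19.0 and *Lyn* at 14.1 CPM per kb again came first, with overlapping ranges, followed by *Dok1* at 11.6 and *Ptpn6* at 8.53 CPM per kb. *Blnk* at 7.58 CPM per kb came next, above *Dok3* at 4.29 CPM per kb and apart from it. *Btk* was last at 1.16 ± 0.22 CPM per kb (SD, n = 4), apart from *Inpp5d* at 2.32. The order between genes rests on lengths from GENCODE and shifts where the longest transcript is used in place of all exons, for example to 9.89 CPM per kb for *Syk* in WT.

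Ratios of counts within a library do not depend on library scaling, and 6 pairs of mediators were compared this way. In 4 of the 6 the groups did not overlap, each at the smallest p that the 126 splits of 9 mice allow (two-sided exact permutation test, p = 0.00794, 0.0119 after Benjamini-Hochberg adjustment over the 6). Each pair held a gene called lower by library, so the ratios are not independent of those calls. How often other gene pairs separate the groups was not computed. Among single genes tested, 17.5% separated as lower and 12.1% as higher. *Blnk* had 2.31 to 3.94 counts per *Btk* count in WT and 10.1 to 15.6 in the libraries labelled *FcγRIIB*-/-, a rise of 2.20 in the mean log2 ratio. *Lyn* had 0.952 to 1.49 counts per *Syk* count in WT and 1.99 to 2.98 in the other group, a rise of 1.03. Of the inhibitory genes, *Ptpn6* had 0.568 to 0.778 counts per *Syk* count in WT and 0.91 to 1.12 in the other group, a rise of 0.58, and *Dok3* had 0.727 to 0.921 per *Dok1* count in WT and 0.384 to 0.561 in the other group, a log2 difference of -0.88. The ratio of *Inpp5d* to *Syk*, an inhibitory lipid phosphatase against the kinase that binds ITAMs, differed by 0.24 on the log2 scale with overlapping groups (two-sided exact permutation test, p = 0.127, adjusted 0.152). *Ptpn6* to *Ptpn11* also overlapped, with a log2 difference of -0.30 (two-sided exact permutation test, p = 0.254, adjusted 0.254). Without library 4 labelled *FcγRIIB*-/- the ratio of *Inpp5d* to *Syk* differed by 0.34 (exact permutation test, two-sided, unadjusted p = 0.0179). Whether the shifts of these ratios differ from each other was not tested.

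**Figure D3:**
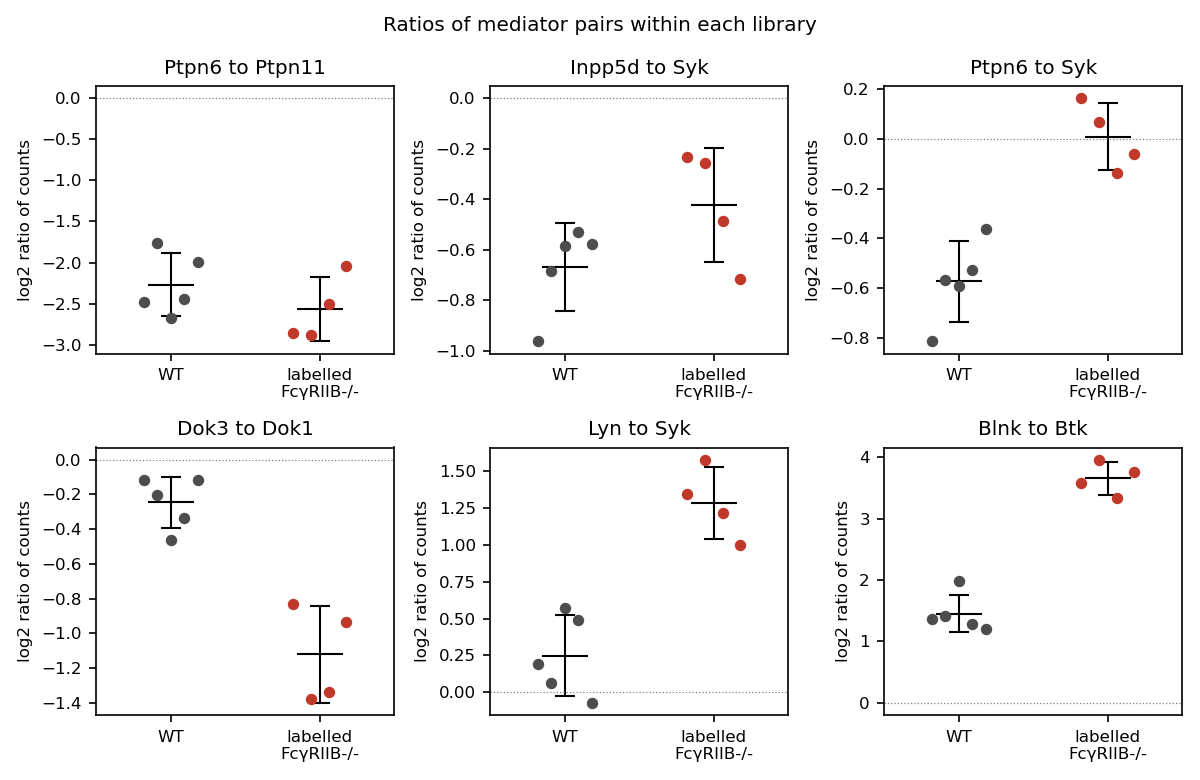
Log2 ratio of counts within each library for the 6 gene pairs, 1 point per mouse (5 WT, 4 labelled *FcγRIIB*-/-) with the mean and SD. *Blnk* to *Btk*, *Lyn* to *Syk*, *Ptpn6* to *Syk* and *Dok3* to *Dok1* separate the groups, and *Inpp5d* to *Syk* and *Ptpn6* to *Ptpn11* do not.

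The other genes of the pathway were read from a list of 70, all tested. Of these, 39 were lower and 0 were higher (edgeR, 19.3% and 14.0% over all genes), and the median log2 fold change was -0.58. Without WT replicate 2, 1 of them, *Fcgr2b*, was higher. At an unadjusted p under 0.05 and with DESeq2, 0 were higher. Of 8 activating receptors and signal chains 6 were lower, from *Cd79a*, the B cell receptor chain, at -2.74 (standard error 0.58, edgeR adjusted p = 0.00567) to *Fcgr1*, the high-affinity IgG receptor, at 0.38 (edgeR adjusted p = 0.209). Of 11 ITIM receptors 6 were lower, and *Siglecg*, an inhibitory lectin of B cells, had the most negative value at -2.38 (standard error 0.45, edgeR adjusted p = 0.00342), while *Fcgr2b* had the most positive.

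Among 11 other SRC, SYK and TEC kinases 5 were lower. They ran from *Blk*, a B cell SRC kinase, at -1.87 (standard error 0.31, edgeR adjusted p = 0.00201) to the widely expressed *Yes1* at -0.05 (edgeR adjusted p = 0.766). Of 16 adaptors 10 were lower, from *Grap2* at -1.97 (standard error 0.31, edgeR adjusted p = 0.0016) to *Gab3* at 0.05 (edgeR adjusted p = 0.86). Of 17 enzymes and exchange factors 10 were lower, from the blood cell GTPase *Rac2* at -1.90 (standard error 0.26, edgeR adjusted p = 0.000833) to *Rasgrp3* at 0.10 (edgeR adjusted p = 0.732). Of 7 other phosphatases and negative regulators 2 were lower, with a median log2 fold change of -0.0034 beside 0.01 over all genes. They ran from *Ptprc*, the leukocyte phosphatase CD45, at -1.16 (standard error 0.28, edgeR adjusted p = 0.011) to *Inppl1*, the broadly expressed relative of SHIP1, at 0.12 (edgeR adjusted p = 0.312).

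**Figure D4:**
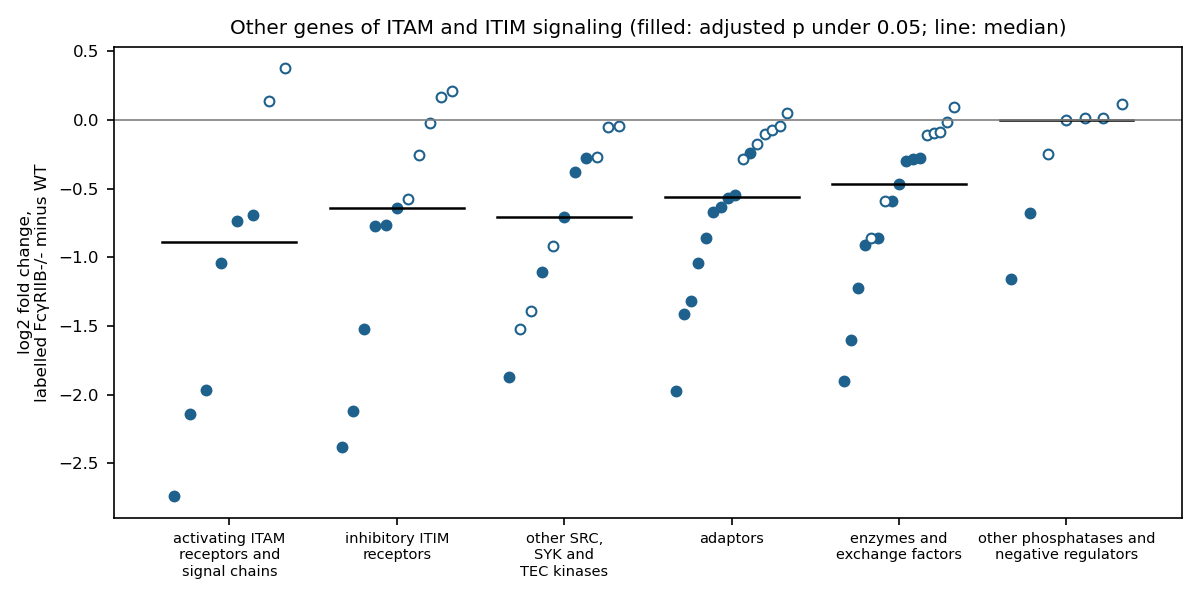
Log2 fold change (libraries labelled *FcγRIIB*-/- minus WT) of the 70 other pathway genes by group, 1 point per gene, filled where the edgeR adjusted p was under 0.05, with a line at each group's median. Of the 70, 39 are lower and 0 are higher, and *Cd79a* at -2.74 is the most negative.

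Markers of blood cell types moved with these genes. The counts called in each list stand beside 19.3% lower and 14.0% higher over all genes tested (edgeR). In whole tissue, fewer cells of a type and less RNA per cell cannot be told apart. Of 10 pan-leukocyte genes 9 were lower, their summed level was 342.5 to 731.8 CPM in WT and 179.7 to 271.7 CPM in the libraries labelled *FcγRIIB*-/-, and the highest sum was in WT replicate 2. *Lcp1*, the most abundant of them, fell by 1.18 on the log2 scale (edgeR adjusted p = 0.00559). All 10 neutrophil genes, all 8 erythroid genes and all 8 megakaryocyte genes were lower, with sums of 1140 to 3471, 408.6 to 641.1 and 265 to 356.3 CPM in WT and 140.4 to 420.7, 9.285 to 65.68 and 74.36 to 129.1 CPM in the other group. So were 8 of 10 B lineage genes (314.3 to 434.3 against 252.2 to 330.4 CPM), 7 of 8 osteoclast genes (854.6 to 1217 against 274.6 to 520 CPM) and 6 of 7 mast cell genes tested (80.21 to 101.7 against 59.14 to 70.64 CPM). Among monocyte and macrophage markers 5 of 10 were lower, with overlapping sums of 554.7 to 746.4 and 482.5 to 638.5 CPM. Among T cell markers 2 of 8 were lower (33.77 to 85.55 against 31.17 to 35.17 CPM), beside 19.3% of all genes tested. All 8 had a negative log2 fold change, and their median was -1.21, beside -1.22 for the pan-leukocyte list. WT replicate 2 held the highest T cell sum, 85.55 CPM, and the other WT mice lay at 33.77 to 44.35 CPM. The median without that mouse is not given here, so its nearness to the pan-leukocyte median may rest on 1 mouse. A single abundant gene that was not called made up most of the mean B lineage, T cell and mast cell sums in each group, and the sums were also taken without it, a choice made after the values were seen. Without *Cd24a* the B lineage sum was 34.9 to 85.6 CPM in WT and 12.2 to 25.8 CPM in the other group. The T cell sum without *Tcf7* was 9.21 to 50.1 against 6.97 to 9.52 CPM, and the mast cell sum without *Kit* was 28.7 to 47.9 against 8.97 to 14.8 CPM.

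All 8 bone-forming cell genes and all 6 tooth genes had counts in every library. Counts called here also stand beside 19.3% lower and 14.0% higher over all genes tested, and lists of 6 or 8 genes are small. Among bone-forming cell genes 2 of 8 were lower, with sums of 27350 to 43850 CPM in WT and 29890 to 41460 CPM in the libraries labelled *FcγRIIB*-/-. Tooth genes had 4 of 6 higher (11730 to 30390 against 33500 to 56240 CPM), skeletal muscle genes 4 of 8 higher (5154 to 12140 against 13520 to 23070 CPM) and endothelial genes 2 of 8 higher (399.5 to 484.2 against 463.7 to 540.5 CPM). Keratinocyte genes had 6 of 8 lower and 1 higher (3220 to 7493 against 4276 to 5244 CPM). The 1 called higher was *Krt5* (log2 fold change 0.39, edgeR adjusted p = 0.0356), and *Krt14*, at 0.24, was not called. Both are abundant keratins of the basal layer. Without both, the only ones not lower, the sum was 370 to 2790 CPM in WT and 61.2 to 81.5 CPM in the other group. Leaving them out was also a choice made after the values were seen. The keratinocyte gene *Flg* was at 0 in 3 of the 4 libraries labelled *FcγRIIB*-/-, and 1 gene each of the B lineage, mast cell and erythroid lists was at 0 in at least 1 library. No marker of these lists was at 0 in all 4. The part of these cell types in the values of the 10 mediators was not tested.

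Scaled to the pan-leukocyte sum instead of the library, 1 of the 10 mediators, *Btk*, was lower and 4, *Ptpn11*, *Dok1*, *Lyn* and *Blnk*, were higher (edgeR's quasi-likelihood test). This scaling moved the median log2 fold change of all genes tested to 1.09 and called 2.85% of them lower and 82.6% higher, so 4 of 10 higher is a smaller share than over all genes. The median of the 10 was 0.40 on this scale. *Btk* had 20.5 to 28.0 counts per 1000 pan-leukocyte counts in WT and 15.1 to 16.1 in the libraries labelled *FcγRIIB*-/-, without overlap, a log2 fold change of -0.71 (standard error 0.34, edgeR adjusted p = 0.042). That call was lost when *Ptprc* alone set the scale (-0.76, edgeR adjusted p = 0.0664), without WT replicate 1 or 4 and without any 1 of the 4 libraries labelled *FcγRIIB*-/- (edgeR adjusted p between 0.0641 and 0.0866). The log2 fold change in those 6 fits with a mouse left out was between -0.73 and -0.67. *Blnk* had 47.3 to 111 counts per 1000 in WT and 162 to 236 in the other group, a log2 fold change of 1.46 (standard error 0.30, edgeR adjusted p = 1.14e-05), against the median of 1.09 over all genes.

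For *Syk*, *Plcg2*, *Dok3* and *Inpp5d*, the difference between the groups on the pan-leukocyte scale was within its error. The log2 fold changes were -0.01 for *Syk* (standard error 0.30, edgeR adjusted p = 0.975) and 0.08 for *Plcg2* (edgeR adjusted p = 0.813). They were 0.18 for *Dok3* (edgeR adjusted p = 0.574) and 0.23 for *Inpp5d* (standard error 0.30, edgeR adjusted p = 0.463). *Ptpn6* was at 0.57 (standard error 0.30, edgeR adjusted p = 0.0644) and passed as higher without WT replicate 3 (0.61, edgeR adjusted p = 0.0333). *Ptpn6* had 65.5 to 75.9 counts per 1000 pan-leukocyte counts in WT and 92.5 to 111 in the libraries labelled *FcγRIIB*-/-. Its groups thus did not overlap, in the direction opposite to *Btk*, although it was not called. Its log2 fold change lay below the median of 1.09 over all genes on this scale. In the main fit on this scale, the genes called lower by library other than *Btk* were not called. With standard errors of about 0.30, a missing call does not show that a gene was unchanged per pan-leukocyte count.

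**Figure D5:**
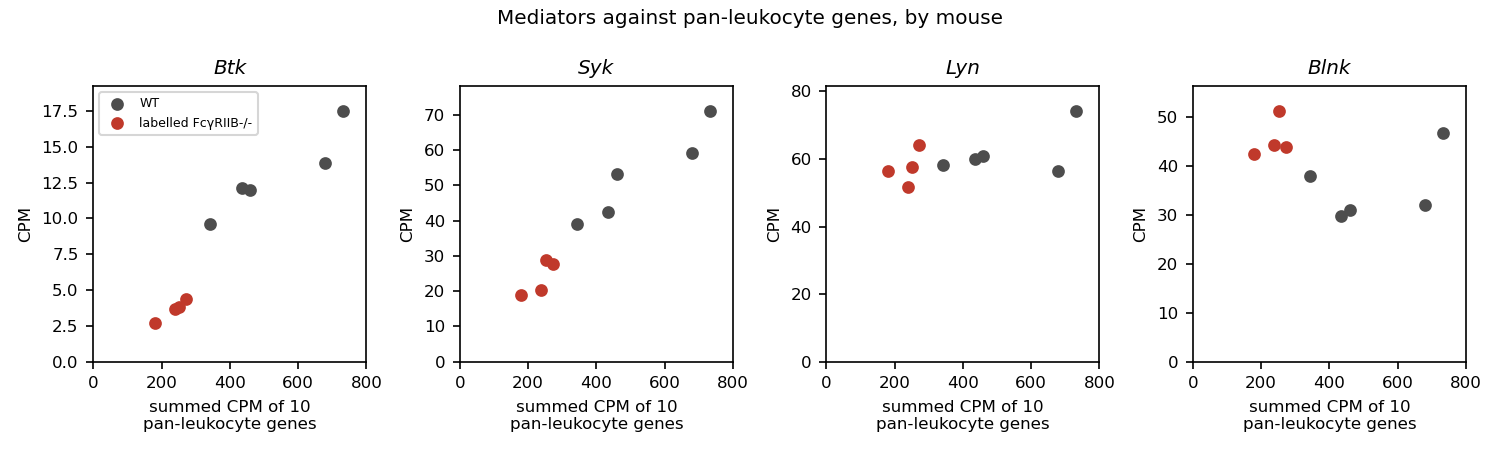
CPM of *Btk*, *Syk*, *Lyn* and *Blnk* against the summed CPM of the 10 pan-leukocyte genes in each mouse, 1 point per library, both axes starting at 0 (5 WT, 4 labelled *FcγRIIB*-/-). The pan-leukocyte sum is 342.5 to 731.8 CPM in WT and 179.7 to 271.7 CPM in the other group, and *Btk* lies below 5 CPM in all 4 of the latter.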

How the data were processed

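RNA of 9 mandibles was compared by genotype. Per the labels and the study's methods, the authors trimmed with Trim Galore, aligned to mm10 with HISAT 02.1.0, assigned reads to genes with featureCounts and deposited the raw counts, not normalized. The gene annotation, the strand setting of the counting and the handling of reads matching several genes are not given in the sources used here. Groups and replicate numbers came from the labels. The table held 1 further column of values that matches no mapped sample and was not used, and 1030 rows with an identifier but no symbol were kept.

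Counts were analysed in R 4.3.3 with edgeR 4.0.16 (limma 3.58.1), using filterByExpr with a minimum count of 10, TMM and the quasi-likelihood test on genotype alone, and p-values were adjusted with Benjamini-Hochberg over all 16329 genes and called under 0.05. Standard errors were the size of the log2 fold change divided by the root of F. CPM was scaled to the TMM library size. For the pan-leukocyte scale, the summed counts of 10 leukocyte genes replaced the library size. For count ratios the test was an exact permutation, two-sided, over 126 splits. Both tools were tested on simulated data at an adjusted p under 0.05. There 198 of 16205 genes were changed, each by 1 on the log2 scale. In that setting 6.63% of edgeR's calls and 17.3% of DESeq2's calls fell on unchanged genes, so DESeq2 was less strict there. These shares depend on how many genes change, and far more were called in the mandibles. No 2 libraries within a group had near-identical counts. Genes of low CPM rest on few reads, as *Btk* with 59 to 105 counts in the libraries labelled *FcγRIIB*-/-.

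The named genes are the 10 mediators, the lowest and highest log2 fold change in each pathway group, *Fcgr2b*, *Ptprc*, and the most abundant marker of lists set beside a result. The members and lists were chosen with earlier results of these data known. Nothing in the labels gives litters or cages, so differences between litters or cages cannot be told apart from those between groups. The p-values set the group difference against the spread between mice within a group. Lengths came from GENCODE M21, and coordinates and promoters from RefSeq (GRCm38). Alternatives were DESeq2 1.42.0 and its size factors, no filter on low counts, an adjusted p under 0.01, a replicate block, *Ptprc* as the scale, a pseudocount of 0.5 counts in ratios, the longest transcript, and leaving out each mouse.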

Additional observations from a re-analysis of the deposited data

Results flagged for a closer look

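Over 32 groups of values, 3 held a mouse far from the others of its group, and chance alone flags about 5 in 100 such groups. *Dok1* measured 27.8 CPM in WT replicate 2, beside 21.9 to 23.3 CPM in the other 4 WT mice. *Lyn* measured 74.2 CPM in the same mouse, beside 56.4 to 60.8 CPM in the others. *Blnk* had 3.94 counts per *Btk* count in WT replicate 3, beside 2.31 to 2.68 in the other WT mice, and this highest WT ratio was still below the lowest of 10.1 in the libraries labelled *FcγRIIB*-/-.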

How the results depend on the processing

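At an adjusted p under 0.01 (edgeR), 1763 genes were lower and 869 were higher, and 22 of the 70 pathway genes were lower. With the replicate block, the count of lower pathway genes went from 39 to 22, while over all genes 2410 were lower in place of 3144 and 1594 were higher in place of 2289. The replicate numbers do not pair the mice, since the deviations of mice sharing a number correlated between -0.114 and 0.0969, and under the block 5 of the 10 mediators were lower, *Ptpn6* being lost (-0.45, edgeR adjusted p = 0.136). The count of lower mediators was 5 or 6 in every alternative. The count of higher mediators was 1 with DESeq2 size factors and 1 with DESeq2, and 0 to 1 with a mouse left out. The count of higher pathway genes was 0 to 1 with a mouse left out. On the pan-leukocyte scale, the count of lower mediators was 0 with *Ptprc* alone, 0 with the block and 0 to 1 with a mouse left out, and the count of higher mediators was 1 with the block. With a mouse left out, the log2 fold change of *Dok1* ran from -0.144 to 0.032, and those of *Syk* and *Plcg2* on the pan-leukocyte scale from -0.0735 to 0.0668 and from -0.0111 to 0.174, each changing sign. The log2 ratio of *Inpp5d* to *Syk* ran from 0.17 to 0.34 with a mouse left out. Without library 4 labelled *FcγRIIB*-/- its unadjusted p was under 0.05 (exact permutation test, two-sided, p = 0.0179). The cause was not tested for any of these. Of 130 alternative log2 fold changes of mediators on the library scale, 117 kept direction and call, and of 120 on the pan-leukocyte scale, 104 did.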
